A study of Mus musculus with 4 samples.

Results

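The clustered histone genes are the genes of chromosomes 13, 3, 11 and 6 that encode the core histones H2A, H2B, H3 and H4 and the linker histone H1. They were taken as every gene whose symbol begins with Hist1h, Hist2h, Hist3h or Hist4h and that had at least 1 unique molecular identifier (UMI, the tag that marks 1 captured transcript) in any cell. This gave 69 of the 25737 genes with a UMI in the series. There were 6 H1, 20 H2A, 19 H2B, 11 H3 and 13 H4 genes, 56 of them from the Hist1 cluster, 9 from Hist2, 3 from Hist3 and 1 from Hist4. The rule goes by symbol, so not all of them encode a histone. RefSeq lists 65 as protein coding, and 1 gene had 2 matches. Hist1h2al (458 UMIs, counted as an H2A gene below) and Hist3h2bb-ps are listed as transcribed pseudogenes, and Hist1h2aj as a pseudogene.

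Single tdTOMATO+ cells were sorted from dissociated testes of 4 wk old mice into wells of 384-well plates, and UMIs were counted at transcript 3′ ends. All mice carried the knock-in allele Eomes<tm1.1(icre/ERT2)Reb> on a B6N.Cg strain background. The allele expresses inducible Cre and tdTomato from Eomes, a T-box gene of rare spermatogonia. Plzf +/+ cells filled plates 1 and 2, and Plzf lu/lu cells, homozygous for the luxoid mutation of the transcription factor Plzf, filled plate 3. Plate 4 held both genotypes, which gave 3 Plzf +/+ libraries (317, 303 and 277 cells) and 2 Plzf lu/lu libraries (314 and 38 cells). The cells are those that the tdTomato reporter marked and the gate kept, not a survey of the testis. The labels name no animals, so p-values measure only the spread between libraries, and apart from plate 4 the genotype and the plate cannot be told apart.

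Libraries held 254514 to 2608702 UMIs, with a median of 5061 to 6364.5 UMIs per cell. Zbtb16, the symbol of Plzf in the tables, had 77.0, 53.1 and 70.3 CPM (UMIs per 1000000 UMIs of the library) on Plzf +/+ plates 1, 2 and 4, and 17.6 and 11.8 on Plzf lu/lu plates 3 and 4, in the direction of the labels. The germ cell label was checked with Dazl and Ddx4, RNA-binding genes of germ cells, and 1195 of 1249 cells had a UMI of either. Sertoli cell markers were also present, with all 9 of the markers that the tables hold found in each library, at 1.56 to 2.06 UMIs per 10000 in Plzf +/+ and 4.91 to 8.70 in Plzf lu/lu libraries. The tables hold 4 of 7 Leydig cell markers. Of these, Insl3, Lhcgr and Hsd17b3 were at 0 in 4 of 5 libraries, 1 was found in each library, and all 4 were found on Plzf lu/lu plate 3. Their summed level was 0.0169 to 0.0393 UMIs per 10000. Some markers of peritubular myoid cells, macrophages, endothelial cells and T and NK cells were found in each library too, at 0.0235 to 0.561 UMIs per 10000 for each list.

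Most histone protein of a dividing cell is made in S phase, when these genes are transcribed together under Npat and their RNAs are cut just after a stem-loop that is bound by Slbp. Such RNAs usually carry no poly(A) tail, so that a 3′-end method, which primes on poly(A), is expected to see only the part that is adenylated or primed within the transcript. Male germ cells also have their own clustered histones, H1t (Hist1h1t), TH2A (Hist1h2aa) and TH2B (Hist1h2ba), which are known for replacing the somatic types around meiosis. Many copies are near identical, and how reads that match several copies were assigned is not given in the sources used here, so the split of UMIs between copies is uncertain.

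The stem-loop is shown first because it decides how a histone RNA ends. The letters GGNNCTTTT, its first arm and loop, were searched on the sense strand in the first 120 bases after the stop codon of annotated transcripts. They were found in 42 of 69 genes. Of the 41 genes with at least 60 annotated bases after the stop codon, 34 (82.9%) had them. Of 38366 other protein-coding transcripts with at least 120 such bases, 1.01% had them, a share of transcripts rather than of genes. In the sequences below, from GENCODE transcripts, capitals mark the 16 bases from the start of the match, which hold both arms of the stem and its loop.
Hist1h4d: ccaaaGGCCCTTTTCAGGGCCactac
Hist1h2ab: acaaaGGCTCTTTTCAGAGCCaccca
Hist1h1c: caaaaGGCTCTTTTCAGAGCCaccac
Hist1h3e: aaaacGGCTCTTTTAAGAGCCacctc
Hist1h1t: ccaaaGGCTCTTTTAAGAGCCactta
Hist1h2bp: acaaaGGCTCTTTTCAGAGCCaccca
They stand for the leading H4 and H2A genes, an H1 and an H3 gene with long annotated ends, a testis gene, and Hist1h2bp, which stood apart in the comparisons that follow.

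Annotated transcripts stopped at different distances from the stem-loop. In 27 genes at most 100 bases followed it, with a median of 29, and in 15 genes more followed, with a median of 598. The genes with short ends held 12362 UMIs (63.9% of all 19335 histone UMIs) and those with long ends 3792 (19.6%). Hist1h4d, with 25 bases after the stem-loop, and Hist1h2ab, with 6, were the leading genes, so a short annotated end did not go with a low count here. Among the 7 genes with at least 60 annotated bases and no such letters were Hist2h2bb (272 UMIs), Hist1h2bc (162) and Hist1h4a (100).

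Promoters are shown next, because most members tested below moved together. They were higher in cells rich in replication gene UMIs and lower in cells with Gfra1. Whether promoter motifs have a part in this was not tested. Of the 69 genes, 60 matched a promoter in the RefSeq table of build GRCm38.p6, which spans 250 bases before to 50 bases after the start. CCAAT, searched on both strands, was in 51 of 60 promoters (85.0%) and in 37.9% of all 27025 promoters. It was in each H1, H2A, H2B and H3 promoter matched but in 3 of 12 H4 promoters. TATAA, searched on both strands, was in 48 of 60 (80.0%) against 25.5% of all promoters. ATTTGCAT, the octamer, searched on both strands, was in 7 of 17 H2A and 6 of 16 H2B promoters and in no H1, H3 or H4 promoter, against 1.75% of all promoters. In the sequences below, the 150 bases before the start, capitals mark these motifs on either strand. They lie at chr13:23581418-23581567 (Hist1h4d), chr13:23750938-23751087 (Hist1h2ab) and chr13:23695661-23695810 (Hist1h1t), all on the + strand.
Hist1h4d: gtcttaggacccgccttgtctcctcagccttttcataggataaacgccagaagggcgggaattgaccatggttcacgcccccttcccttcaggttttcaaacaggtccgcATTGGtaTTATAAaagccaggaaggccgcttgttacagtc
Hist1h2ab: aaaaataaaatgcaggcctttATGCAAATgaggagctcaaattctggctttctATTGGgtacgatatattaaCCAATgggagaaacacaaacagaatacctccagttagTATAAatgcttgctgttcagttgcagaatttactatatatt
Hist1h1t: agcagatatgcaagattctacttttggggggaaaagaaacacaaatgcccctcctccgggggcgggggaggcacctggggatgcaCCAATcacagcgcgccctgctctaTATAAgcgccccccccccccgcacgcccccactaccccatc
The TTATA and TATAA letters overlap in the Hist1h4d promoter. A match is a run of letters, not a bound site.

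The testis pair Hist1h2aa and Hist1h2ba is transcribed head to head, with 281 bases between the starts, 1 of 9 such H2A and H2B pairs with starts within 500 bases of each other. Their shared stretch, chr13:23934187-23934406 on the + strand of GRCm38.p6, is shown because both genes are testis histones that lie side by side. It holds 4 CCAAT, 1 TATAA and 1 octamer match.
Hist1h2aa and Hist1h2ba: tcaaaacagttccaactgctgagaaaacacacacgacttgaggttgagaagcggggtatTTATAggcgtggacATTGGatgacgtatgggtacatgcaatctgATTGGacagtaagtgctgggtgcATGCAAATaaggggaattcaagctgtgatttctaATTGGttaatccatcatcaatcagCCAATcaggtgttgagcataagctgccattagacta

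Clustered histone transcripts were found in most sorted cells, and a small share of cells held a large part of them. Cells with at least 1 histone UMI made up 89.9%, 84.2% and 92.4% of those on Plzf +/+ plates 1, 2 and 4, and 96.2% and 89.5% on Plzf lu/lu plates 3 and 4. After thinning of each cell to 2000 UMIs, which left out 82 of 1249 cells, the shares were 79.8%, 63.4%, 71.7%, 80.9% and 75.9% in that order. In the 1167 thinned cells, 299 had no histone UMI and 114 had at least 10. The top 10% of cells of a library held 55.6%, 50% and 55.3% of the histone UMIs in Plzf +/+ and 42.0% and 48.3% in Plzf lu/lu libraries.

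**Figure D1:**
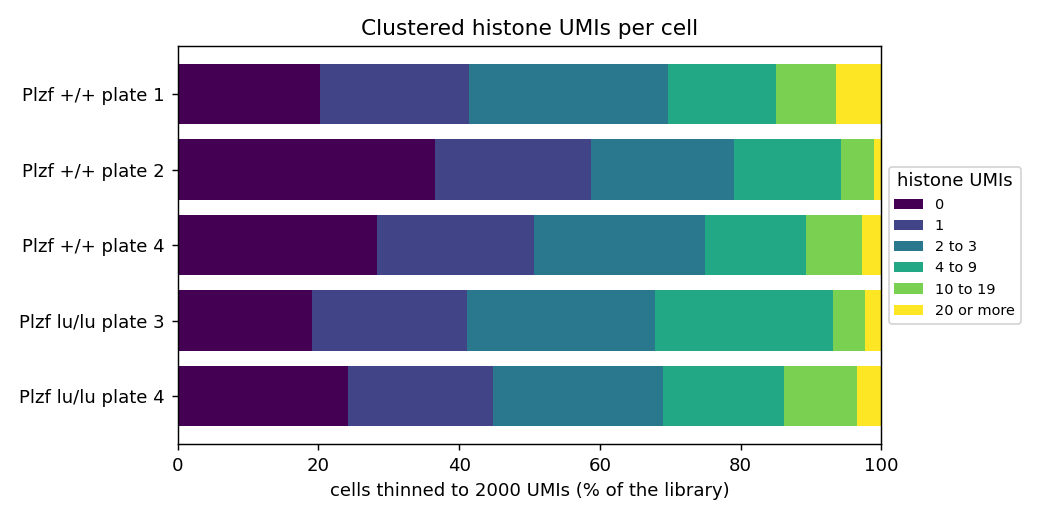
Share of cells (x axis, % of the library) with 0, 1, 2 to 3, 4 to 9, 10 to 19 or 20 and more clustered histone UMIs, after thinning to 2000 UMIs, in each of the 5 libraries (y axis). Cells with at least 10 UMIs made up 14.98%, 5.80% and 10.8% of the Plzf +/+ libraries and 6.91% and 13.8% of the Plzf lu/lu libraries.

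The plot of UMIs per cell shows that Plzf +/+ plate 2 had the largest share of cells without a histone UMI (36.6%) and Plzf +/+ plate 1 the largest share with 20 or more (6.51%). Cells with a Dazl or Ddx4 UMI held 20.87 histone UMIs per 10000 (95% Poisson interval 20.6 to 21.2). The 54 cells without either held 6.65 (5.43 to 8.07), at a median depth of 2033.5 against 6093 UMIs. Intervals cover counting error only.

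Per 10000 UMIs of a library, clustered histones took 32.99, 15.22 and 18.83 UMIs on Plzf +/+ plates 1, 2 and 4 and 17.26 and 16.54 on Plzf lu/lu plates 3 and 4. The mean was 22.35 ± 9.39 (SD, n = 3) in Plzf +/+ and 16.9 ± 0.509 (SD, n = 2) in Plzf lu/lu libraries. With each cell weighted equally, the mean rate was 18.95 in Plzf +/+ and 19.04 in Plzf lu/lu libraries. In cells thinned to 2000 UMIs, the mean was 3.75 ± 1.35 histone UMIs per cell (SD, n = 3) and 3.75 ± 0.258 (SD, n = 2). The library of plate 1 stood above the other 4, which lay within 15.22 and 18.83, and the Plzf lu/lu values fell inside the Plzf +/+ range. Without the library of plate 1, the Plzf +/+ mean was 17.0.

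H4 genes gave 37.3% of the histone UMIs, H2A 28.7%, H1 13.3%, H2B 11.5% and H3 9.26%. A single H4 gene led. Hist1h4d (chr13:23581568-23581969, + strand) held 5972 UMIs, or 30.89% of the total, and was found in 934 of 1249 cells (74.8%). The other 12 H4 genes together held 6.38%, led by Hist1h4c with 566 UMIs in 283 cells. The 12 genes with the most UMIs held 70.4% of the total, 31 genes had at least 100 UMIs, and 7 had under 10. Each UMI marks 1 transcript end, so counts were not divided by gene length, but the share of transcripts that the primer reaches may differ between genes, and their order is an order of counts.

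The leading genes of each class were present in each library. Hist1h4d had 1028, 461 and 531 CPM on Plzf +/+ plates 1, 2 and 4 and 571 and 526 on Plzf lu/lu plates 3 and 4. Hist1h2ab (H2A) had 269.6, 117.6 and 130.2, against 111.5 and 106.1. Hist1h1a (H1) had 175, 72.9 and 104, against 65.6 and 94.3. For these genes plate 1 was the highest library, and the 2 Plzf lu/lu values lay inside or just below the Plzf +/+ range. Hist1h3b and Hist1h3e, the leading H3 genes, ranged from 31.4 to 86.9 and from 38.4 to 69.0 CPM, and Hist1h2bj, the leading H2B gene, from 32.9 to 69.5.

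**Figure D2:**
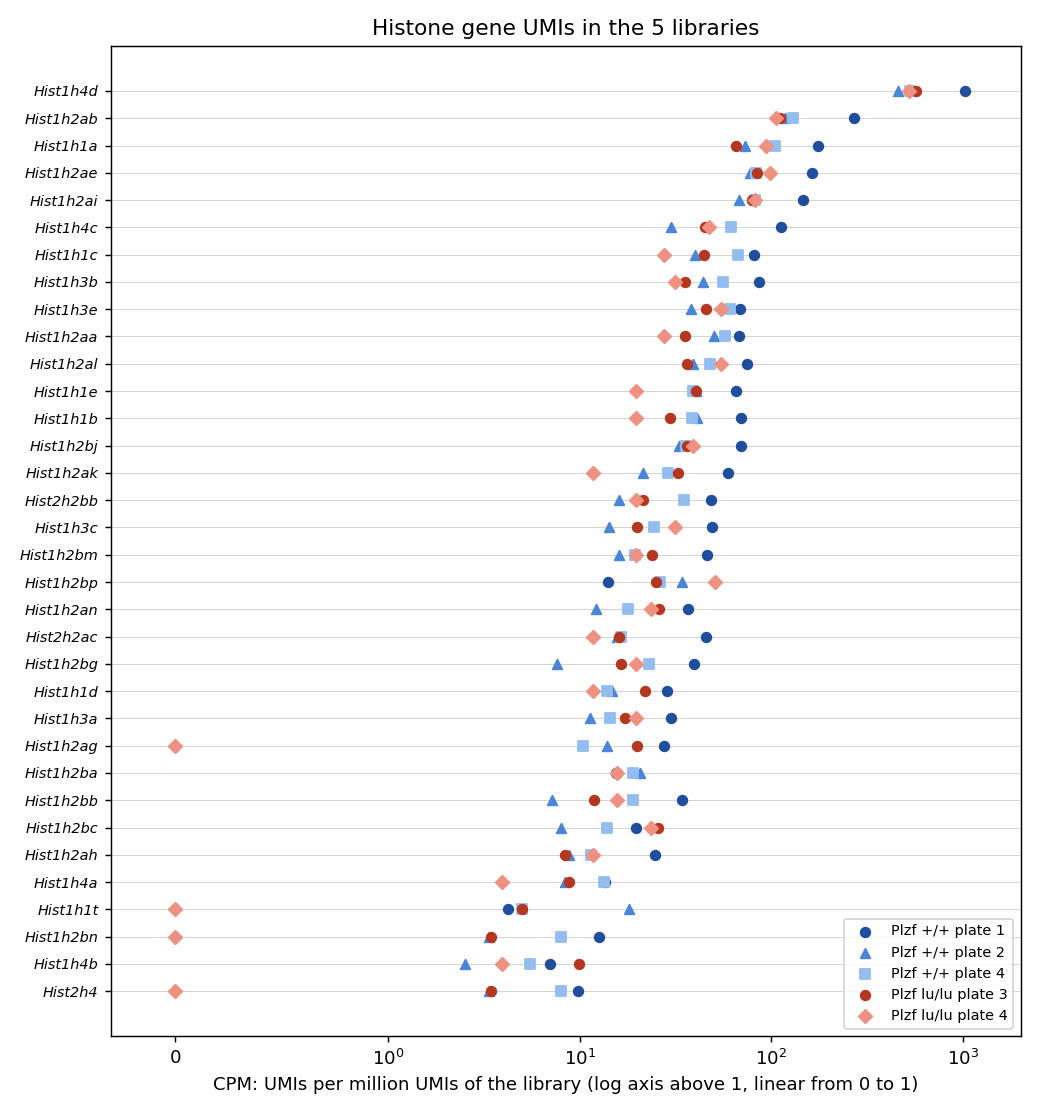
CPM (x axis, logarithmic above 1 and linear from 0 to 1) for 34 named histone genes (y axis, ordered by total UMIs), with 1 point for each of the 5 libraries. Hist1h4d lies apart at 461 to 1028, and the point of Plzf +/+ plate 1 is the highest for most genes.

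**Figure D3:**
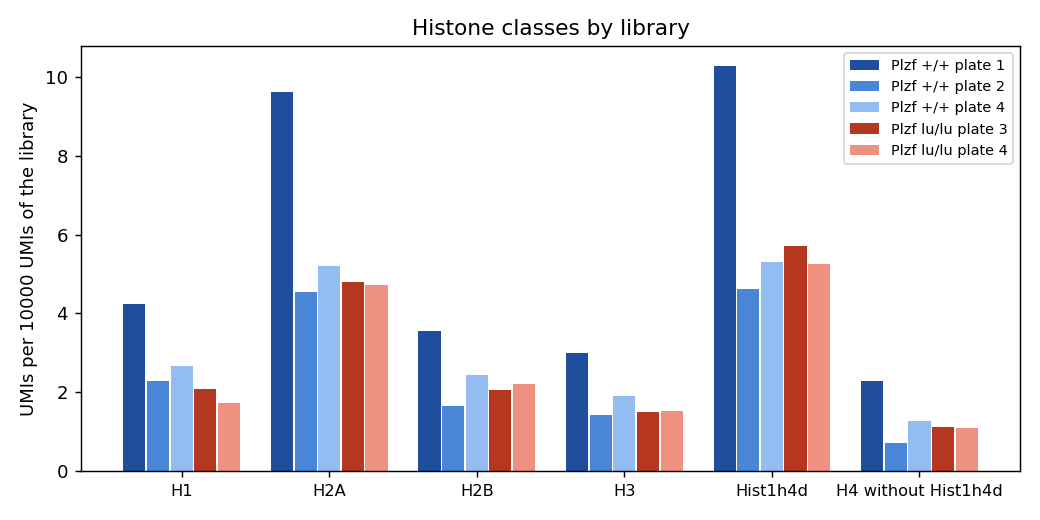
UMIs per 10000 UMIs of the library (y axis) for the histone classes, with Hist1h4d drawn apart from the other H4 genes (x axis), and 1 bar for each of the 5 libraries. Plzf +/+ plate 1 is the highest bar in each class, with 4.25 for H1, 9.62 for H2A, 3.55 for H2B, 3.00 for H3, 10.3 for Hist1h4d and 2.30 for the other H4 genes.

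The plot of classes by library shows H4 first, with 34.9% to 39.6% of the histone UMIs, and H2A next, with 27.7% to 29.9%, in each library. H1 came before H2B in 4 libraries and after it on Plzf lu/lu plate 4 (10.4% against 13.3%). The plot of genes by library shows where a gene did not follow the rest. Hist1h2bp had its lowest value, 14.1 CPM, in the library of plate 1 and its highest, 51.1, in Plzf lu/lu plate 4. Hist1h1t was also not highest on plate 1, with 18.1 on plate 2 and 4.23 on plate 1.

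The first comparison asked which histone genes differ with Plzf. None passed the test. UMI sums per library were fitted with edgeR over 13728 genes, of which 0.816% were called in either direction at an adjusted p under 0.05. Of the 69 genes, 51 passed the filter on low counts, and 0 of them were called (3 at an unadjusted p under 0.05, against 1943 of all 13728 genes, and with DESeq2 0 called and 1 at an unadjusted p under 0.05, against 926). The log2 fold change, Plzf lu/lu over Plzf +/+, was below 0 for 42 of the 51 and had a median of -0.38, against 0.00 for all genes. Without Plzf +/+ plate 1, the median was 0.01 and 26 of 47 genes were above 0. It was -0.62 without Plzf +/+ plate 2 (44 of 49 genes below 0, 8 at an unadjusted p under 0.05, against 1369 of all 13332, and 0 called by edgeR) and -0.47 without Plzf +/+ plate 4 (40 of 47 below 0). With all libraries kept, the median was -0.02 in cells thinned to 2000 UMIs (16 of 24 tested genes below 0) and -0.15 without the cells rich in late germ cell genes (30 of 45 below 0). The lean to lower values thus grew or shrank with the library left out and with the cells that were weighted most.

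The smallest adjusted p was that of Hist1h2aa, the H2A variant TH2A, with 67.6, 50.6 and 57.4 CPM in Plzf +/+ and 35.7 and 27.5 in Plzf lu/lu libraries. These values do not overlap, and the log2 fold change was -0.76 ± 0.25 (SE; edgeR adjusted p = 0.217, DESeq2 also above 0.05). Summed with Hist1h2ba and Hist1h1t, testis histones took 0.874, 0.894 and 0.813 UMIs per 10000 in Plzf +/+ and 0.564 and 0.432 in Plzf lu/lu libraries. Hist1h2ba had a log2 fold change of -0.17 and Hist1h1t of -1.06, and neither passed the test. Hist1h2aa was found in 16.1%, 15.2% and 15.5% of Plzf +/+ cells and in 13.4% and 13.2% of Plzf lu/lu cells. Its 144, 120 and 115 UMIs came from 51, 46 and 43 Plzf +/+ cells, and its 93 and 7 UMIs from 42 and 5 Plzf lu/lu cells.

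At the ends of the range stood Hist1h2bc at 0.90 and Hist1h4b at 0.85 (but -0.32 without Plzf lu/lu plate 3), and Hist1h2bn at -1.35 and Hist2h4 at -1.18. Hist1h2bc had 19.7, 8.01 and 13.96 CPM in Plzf +/+ and 25.7 and 23.6 in Plzf lu/lu libraries (edgeR adjusted p = 0.386). It was the 1 histone gene of 47 called without Plzf +/+ plate 1, at a log2 fold change of 1.27, in a fit that called 1387 of all 13631 genes. Hist1h2bn and Hist2h4 were at 0 in Plzf lu/lu plate 4, which held 254514 UMIs. Beside this comparison, 3 of 8 tested Sertoli cell markers were higher in Plzf lu/lu (median log2 fold change 1.91), and their part in it was not tested.

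The next question was which histone genes go with DNA replication. Each library was divided by the summed UMIs of 42 replication genes (such as Mcm2 to Mcm7, subunits of the replicative helicase, and Pcna, the polymerase clamp), counted after thinning to 2000 UMIs. Cells above the 75th percentile of their own library, here called replication-rich, were set against the other cells of that library, with the library as a block. Histones of each class rose in replication-rich cells. Per 10000 UMIs, histones took 67.2, 32.1 and 40.8 UMIs in replication-rich and 21.3, 11.04 and 11.96 in other cells on Plzf +/+ plates 1, 2 and 4. On Plzf lu/lu plates 3 and 4 the values were 24.4 and 32.2 against 14.8 and 12.6. The ratio was 2.91 to 3.41 in Plzf +/+ libraries and 1.65 and 2.54 in Plzf lu/lu libraries, while the ratio of median depth was 0.787 to 1.33. At 2000 UMIs per cell, the ratio of mean histone UMIs was 2.82, 3.14 and 3.0 in Plzf +/+ libraries. It was 1.42 and 3.215 in Plzf lu/lu libraries, where plate 4 had 6 replication-rich cells, so the genotypes overlapped at equal depth.

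Of 8740 genes tested in this comparison, 6.34% were called higher. Of the 69 histone genes 29 passed the filter, and 27 of these were called higher (edgeR, adjusted p under 0.05; 26 with DESeq2), with a median log2 fold change of 1.48 against -0.01 for all genes. Because a filter on counts favours genes that are high in 1 group, the fit was also run without it on all 69. Then 33 rose, against 2.34% of genes called higher, 2 fell, against 7.93% called lower, and 58 were above 0. The 2 that fell were Hist1h2bp and Hist2h2aa2.

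Among linker histones, 5 of 5 tested H1 genes rose, by log2 fold changes of 1.35 (Hist1h1e) to 1.94 (Hist1h1b). Hist1h1b had 205, 98.9, 101, 35.5 and 41.8 CPM in replication-rich cells of the 5 libraries and 23.0, 27.0, 19.9, 26.8 and 15.7 in the other cells. It was higher in 5 of 5 libraries, by the least on plate 3. All 10 tested H2A genes rose, by 1.20 (Hist1h2ag) to 2.19 (Hist1h2an). Hist1h2ab had 632.5, 282, 329, 195 and 251 CPM against 144, 76.6, 67.6, 84.9 and 67.9, with no overlap between replication-rich and other cells (log2 fold change 1.80 ± 0.14, edgeR adjusted p = 9.0e-08).

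Of 8 tested H2B genes 6 rose, by 0.88 (Hist1h2ba) to 1.89 (Hist1h2bm). The 4 tested H3 genes rose, by 0.99 (Hist1h3e) to 1.98 (Hist1h3b). Both tested H4 genes rose, Hist1h4c by 0.85 and Hist1h4d by 1.24. Hist1h4d had 1901, 1017, 1196, 740 and 919 CPM in replication-rich cells and 728, 322, 324, 515 and 434 in the other cells, higher in 5 of 5 libraries (edgeR adjusted p = 0.0068). It did not pass without Plzf +/+ plate 2, at a log2 fold change of 1.15, and Hist1h2ba did not pass when any 1 of the 3 Plzf +/+ libraries was left out, at 0.79 to 0.91.

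The 2 tested genes that did not rise were both H2B genes. Hist1h2bc had a log2 fold change of 0.02 ± 0.39 (SE), and its annotated transcript has no stem-loop letters. Hist1h2bp was at -1.17 ± 0.61 (edgeR adjusted p = 0.25), with 28 UMIs in replication-rich and 210 in other cells. Hist2h2bb, which also has no stem-loop letters in its transcript, rose by 1.36, so the letters did not separate the genes that rose from those that did not.

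The testis gene Hist1h2aa rose as well. It had 152, 118, 94.3, 57.2 and 62.7 CPM in replication-rich cells and 38.9, 34.0, 44.4, 27.3 and 10.4 in the other cells. The values did not overlap, and the log2 fold change was 1.45 ± 0.19 (SE, edgeR adjusted p = 9.3e-06). Hist1h1t was tested only without the filter and was at -0.38 ± 0.52 (SE, edgeR adjusted p = 0.84), with 13 UMIs in replication-rich and 60 in other cells, higher in 2 libraries and lower in 2.

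Some genes that handle histones moved in the same direction. Of 29 tested genes of histone supply 11 were called higher and 0 lower. In all, 23 were above 0, with a median log2 fold change of 0.30. Slbp, which binds the stem-loop, rose by 0.86, Npat, the coactivator of the clusters, by 0.62, Casp8ap2, a further factor of histone gene expression, by 0.68, and the chaperone genes Asf1b and Chaf1b by 1.01 and 1.04. Of 14 tested histone genes outside the clusters, H1fx rose by 0.55. The germ cell variants H1fnt, H2afb1 and Hils1 fell by 3.15, 3.91 and 2.88 on the log2 scale, and H3f3a, which encodes the replacement histone H3.3, was at -0.17 (edgeR adjusted p = 0.237). Among G2 and mitosis genes 22 of 42 rose and 2 fell, with Mki67 at 1.36 and Top2a at 1.16.

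Beside this comparison, 25 of 31 late germ cell genes were lower in replication-rich cells (median -2.54), as were 3 of 3 tested Sertoli cell markers (median -2.21). With the cells rich in late germ cell genes left out, 23 of 25 tested histone genes rose, with a median of 1.58, against 320 of all 7489 genes.

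**Figure D4:**
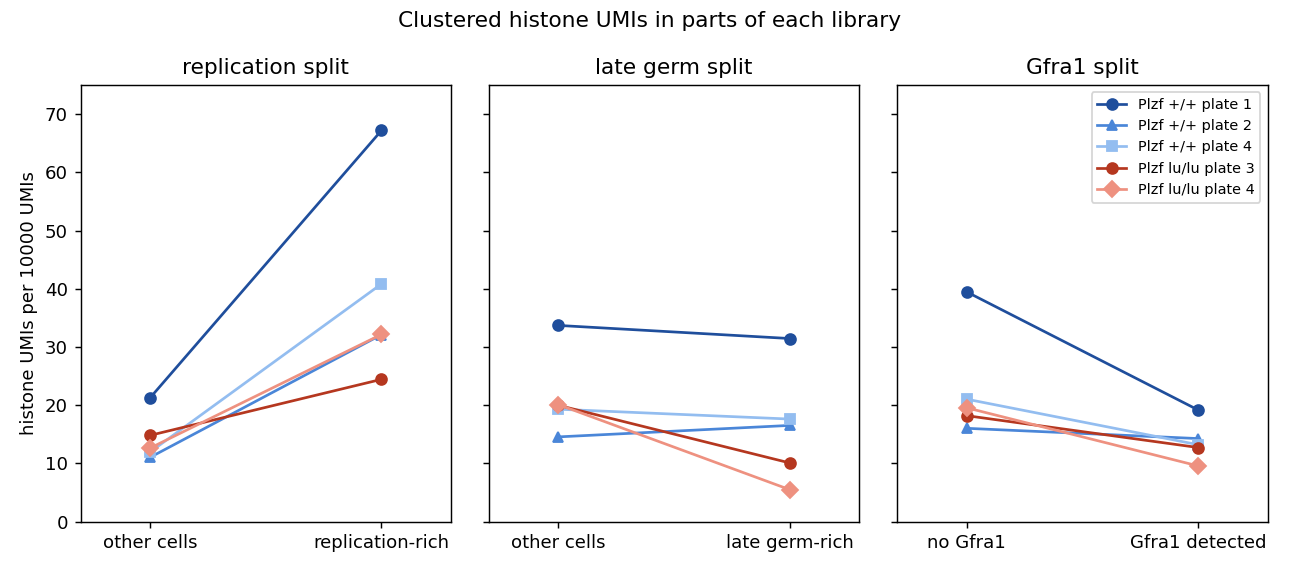
Clustered histone UMIs per 10000 UMIs (y axis) in the other cells and the rich cells of each library, joined by a line for each of the 5 libraries, for the division by replication genes, by late germ cell genes and by detection of Gfra1 (left to right). Each line rises with replication genes, from 11.04 to 21.3 up to 24.4 to 67.2, and each line falls where Gfra1 was detected.

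The plot of histone UMIs in parts of each library shows the spread of the sizes. Its middle part divides cells by 34 late germ cell genes (such as Ldhc, Hspa2, Prm1 and Tnp1, of spermatocytes and spermatids) and has no common direction over the 5 libraries. Histones took 31.5, 16.5 and 17.6 UMIs per 10000 in late germ-rich cells of the Plzf +/+ libraries, against 33.7, 14.6 and 19.3 in the other cells. In the Plzf lu/lu libraries they took 10.1 and 5.49, against 20.0 and 20.1. At 2000 UMIs per cell, the mean was 5.54, 3.38 and 4.10 histone UMIs in late germ-rich cells of the Plzf +/+ libraries, above 5.09, 2.21 and 3.41 in the other cells. It was 2.36 and 0.5 in those of the Plzf lu/lu libraries, below 3.89 and 4.83. At equal depth the genotypes thus lay on opposite sides, with 6 late germ-rich cells on Plzf lu/lu plate 4.

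Of 9918 genes tested in this division 23.3% were called higher and 20.4% lower. Of the 69 histone genes 30 passed the filter, of which 5 were called higher and 1 lower, with a median of -0.16, against -0.17 for all genes. The position of the histone median against that of all genes changed with the libraries. It was -0.49 against -0.15 without Plzf +/+ plate 2, and 0.04 against -0.21 without Plzf lu/lu plate 3. Among the 30, the largest difference was that of Hist1h2bp, an H2B gene (chr13:21787483-21801561, + strand) with 2 annotated transcripts of at least 60 bases after the stop codon, 1 of them with the stem-loop. It had 38.1, 82.1, 62.4, 81.8 and 137 CPM in late germ-rich cells and 5.76, 2.85, 4.13, 3.21 and 16.6 in the other cells. Each late germ-rich value was above each of the others, and 211 of its UMIs came from late germ-rich cells against 27 from the others. The log2 fold change was 4.06 ± 0.32 (SE), or 16.7-fold (edgeR adjusted p = 2.0e-15).

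Hist1h4a, an H4 gene without stem-loop letters, was higher by 1.34, with 50 UMIs in late germ-rich and 47 in other cells, and was higher in 3 of 5 libraries. Hist1h2ba rose by 1.10 and Hist1h2aa by 0.79, in 4 and 3 of 5 libraries, and Hist1h2bc by 0.78, in 3 of 5. Each of these 4 calls was lost when a single library was left out. Hist1h2ba was at 0.87 without Plzf +/+ plate 2, Hist1h4a (which missed the filter without Plzf +/+ plate 1 or 2) at 0.94 and Hist1h2aa at 0.57 without Plzf +/+ plate 4, and Hist1h2aa was at 0.40 without Plzf +/+ plate 1. Hist1h2bc was at 0.63 and 0.75 without Plzf +/+ plate 2 or 4 and at 0.56 without Plzf lu/lu plate 3. Hist1h4d was lower, at -0.47, and was not called without either Plzf lu/lu library (-0.38 and -0.32). Without Plzf +/+ plate 1, 6 of 28 histone genes were called lower, against 3578 of all 10247 genes. Without Plzf +/+ plate 2 or 4, 5 of 29 were called lower in each fit, against 973 of all 9616 and 1125 of all 9965 genes. Hist1h2bp was called in each fit that left out 1 library, at 3.76 to 4.37.

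The fit without the filter, on all 69 genes, called 9 higher, against 14.8% of genes, and 6 lower, against 11% (2804 of 25597). The 9 were Hist1h2bp, Hist1h4a, Hist1h2ba, Hist1h2aa and 5 genes of few UMIs. Of these, the testis gene Hist1h1t had 51 UMIs in late germ-rich and 22 in other cells, higher in 4 libraries and lower in 0 (log2 fold change 2.05 ± 0.48, SE, edgeR adjusted p = 1.6e-04). Hist2h2aa2 had 38 and 0 UMIs, Hist2h2be 22 and 2, Hist2h3c2 10 and 1, and Hist3h2a 24 and 9. The 6 called lower were Hist1h4d, Hist1h2ad, Hist1h2ai, Hist1h3b, Hist1h3e and Hist1h3i.

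Of 14 tested histone genes outside the clusters 5 rose and 3 fell in late germ-rich cells. H2afb1, H1fnt and Hils1, variants of late male germ cells, rose by 7.31, 6.24 and 6.24, and the chaperone genes Nasp and Chaf1a by 1.16 and 1.22, while 5 of 29 histone supply genes rose and 7 fell. All 5 tested Sertoli cell markers were higher too, with a median of 3.05. Their summed level was 3.67 to 22.0 UMIs per 10000 in late germ-rich cells and 0.397 to 4.03 in the other cells, and their part in the result was not tested.

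In single cells, the testis genes were found in few cells. Hist1h2aa had a UMI in 187 of 1249 cells (14.97%, exact 95% interval 13.0 to 17.1), Hist1h2ba in 90 (7.21%, 5.83 to 8.78) and Hist1h1t in 43 (3.44%, 2.503 to 4.61). Among the 54 cells without Dazl and Ddx4, 1 had Hist1h2aa, 2 had Hist1h2ba and 0 had Hist1h1t at a median depth of 2033.5 UMIs. For cells with a Hist1h1t UMI, not for cells that express it, the upper limit is 5.56% by 3 counts and 6.60% by the exact interval. Of the 90 cells with Hist1h2ba, 74.4% also had its head-to-head neighbour Hist1h2aa, against 14.97% of all cells. At 2000 UMIs per cell the share was 50% of 30 cells, while 73 of 1167 cells had Hist1h2aa. Over the 8 pairs whose H2B gene was found in at least 17 cells, the share of its cells that also had the H2A gene was 22.5% (Hist1h2bp with Hist1h2an) to 74.4%. Hist1h2bl was next, with 70.6% of its 34 cells also having Hist1h2ai, against 28.5% of all cells. At 2000 UMIs the shares of these pairs were 6.25% (Hist1h2bk with Hist1h2ah) to 50%. Genes outside the pairs shared cells too, since 74.9% of cells with Hist1h3b had Hist1h2ab, against 31.1% of all cells. Cells with Hist1h2aa were deeper, with a median of 9282 UMIs against 5548 in the others.

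The last division asked how histones go with Gfra1, the receptor gene for GDNF that marks stem cell-rich spermatogonia. Cells with a Gfra1 UMI after thinning to 2000 UMIs were set against cells without one. Histones were lower where Gfra1 was detected, in 5 of 5 libraries. They took 19.2, 14.3 and 13.2 UMIs per 10000 in Gfra1 cells of the Plzf +/+ libraries, against 39.5, 16.03 and 21.03 in the other cells. In the Plzf lu/lu libraries they took 12.7 and 9.57, against 18.2 and 19.5. The ratio was nearest to 1 on plate 2 (0.890), and the Gfra1 cells of Plzf lu/lu plate 4 were 7 cells. Median depth in Gfra1 cells was 0.799 to 1.53 times that of the other cells.

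Of 9959 genes tested, 4.4% were called lower. Of the 69 histone genes 27 passed the filter, and 14 of these were called lower (edgeR, adjusted p under 0.05; 7 with DESeq2). All 27 had a log2 fold change below 0, with a median of -0.85 against -0.01 for all genes. Without the filter 21 of 69 were called lower, against 3.37% of genes, and 63 were below 0. The count depended on the libraries, and the calls over all genes moved with it. Without Plzf +/+ plate 1, 1 of 26 was called lower (117 of all 9905 genes), without Plzf +/+ plate 4, 3 of 28 (75 of all 9988), and without Plzf +/+ plate 2, 20 of 26 (697 of all 8953). In a fit without the library block 0 of all 9959 genes were called (edgeR, 769 at an unadjusted p under 0.05). The histone genes made up 18 of these 769, and their 27 values were still below 0.

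The calls came from each class, with 2 of 5 tested H1, 5 of 8 H2A, 3 of 8 H2B, 2 of 4 H3 and 2 of 2 H4 genes. Hist1h2ab had 142, 112, 82.2, 62.6 and 55.5 CPM in Gfra1 cells and 328, 123, 148, 123 and 126 in the other cells, lower in 5 of 5 libraries (log2 fold change -0.85 ± 0.14, edgeR adjusted p = 0.0019). Hist1h4d had 676, 429, 441, 561 and 513 against 1192, 486, 563, 574 and 538, a smaller difference (-0.39 ± 0.09, edgeR adjusted p = 0.017). Among the genes called, Hist1h2bc had the lowest value at -1.33, and Hist1h2aa was at -0.995.

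Replication genes did not follow the histones in this division. Of 41 tested 3 were higher and 1 lower where Gfra1 was detected, with a median of 0.10, while 15 of 42 G2 and mitosis genes were lower and 0 higher (median -0.38), with Mki67 at -0.50. Of 29 histone supply genes 1 was lower, the chaperone gene Nasp at -0.41. Late germ cell genes had a median of -1.25, with 7 of 33 lower, and with the cells rich in them left out 20 of 21 tested histone genes were lower, with a median of -1.04, against 229 of all 8280 genes. Of 3 tested Sertoli cell markers 1 was lower.

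**Figure D5:**
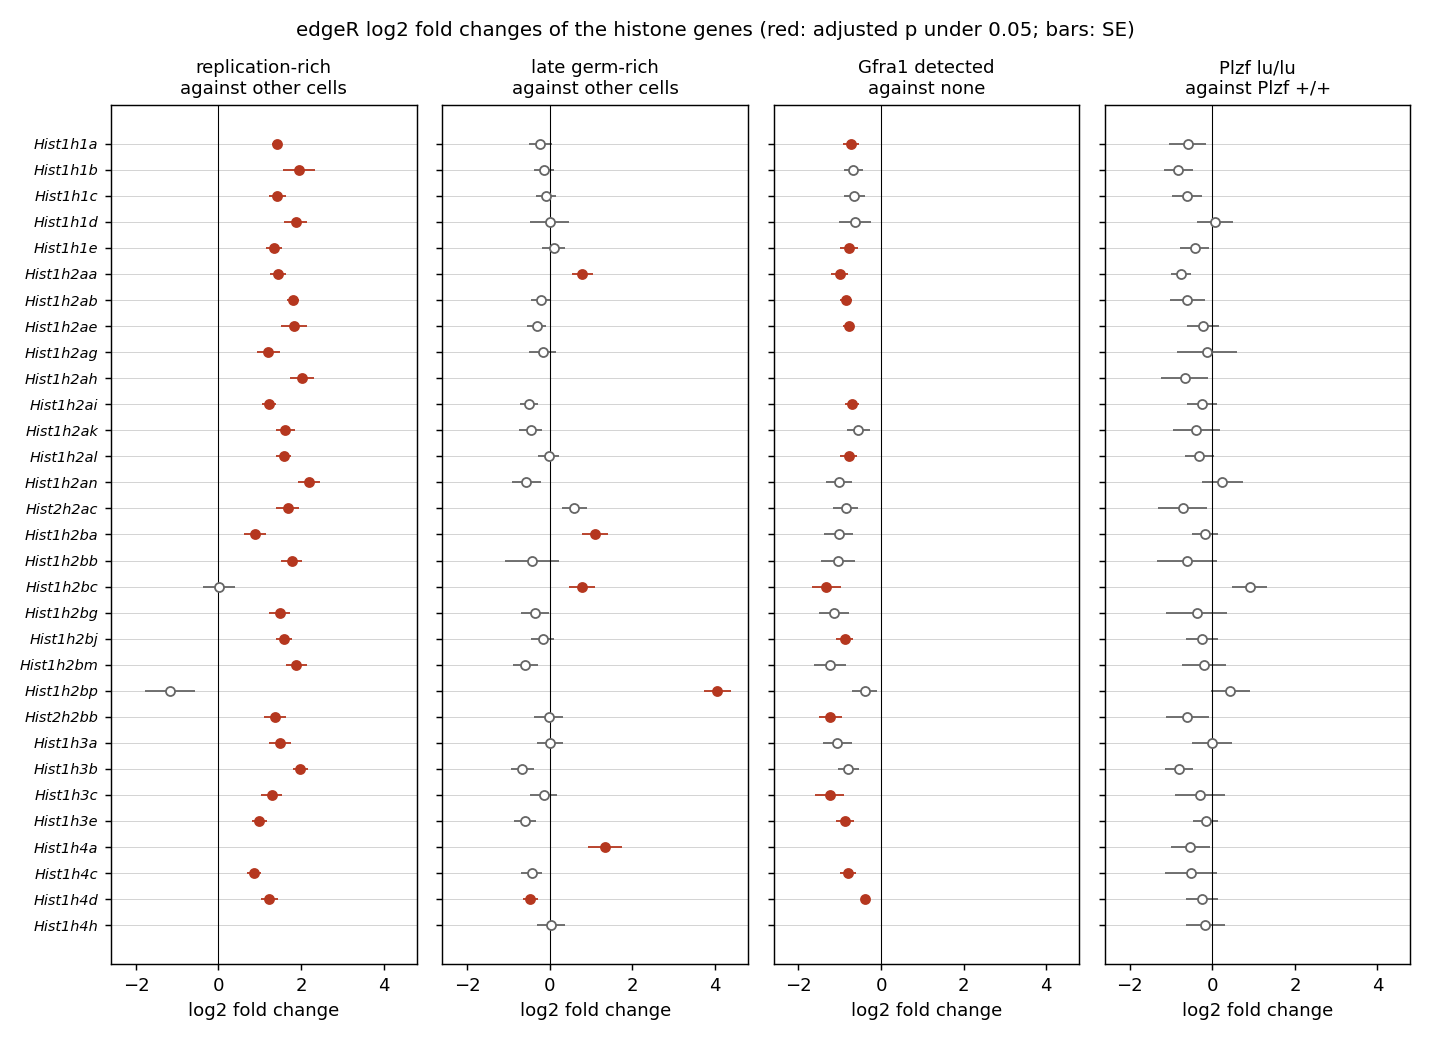
Log2 fold changes (x axis, edgeR) with their SE for 31 histone genes that passed the filter in at least 1 division of the cells (y axis, ordered by class), in replication-rich against other cells, late germ-rich against other cells, Gfra1 cells against the others, and Plzf lu/lu against Plzf +/+ libraries. Filled red points passed an adjusted p of 0.05, and genes without a point were not tested. Nearly all points lie right of 0 with replication genes and left of 0 with Gfra1, and Hist1h2bp lies apart at 4.06 in late germ-rich cells.

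Read across, the plot of fold changes shows that Hist1h2bp and Hist1h2bc alone, of the 29 tested, lacked a call with replication genes and that both were called with late germ cell genes. The divisions cut the same cells in 3 ways, so their values are not independent.

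Whether these differences between cells changed with Plzf was tested as an interaction, added after the data were seen. With all 5 libraries, none of the 3 interactions called a histone gene, and leaving out 1 library moved their medians. The replication difference was lower in Plzf lu/lu libraries for 28 of 29 genes, with a median of -0.78 on the log2 scale, against -0.03 for all genes. With edgeR 0 genes were called, and 11 histone genes were at an unadjusted p under 0.05, against 193 of all 8740 genes. With DESeq2 0 were called and 2 were at an unadjusted p under 0.05. Without Plzf lu/lu plate 3 the median was -0.30, with 17 of 28 lower and 0 at an unadjusted p under 0.05, and without Plzf +/+ plate 2, 2 of 30 were called, against 5 of all 8788 genes. For Hist1h4d the difference was -0.97 ± 0.20 (SE, edgeR adjusted p = 0.37).

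The late germ difference was lower in Plzf lu/lu libraries for 28 of 30 genes, with a median of -1.48, against -0.14 for all genes. With edgeR 0 genes were called, and 18 histone genes were at an unadjusted p under 0.05, against 412 of all 9918 genes. With DESeq2 0 were called and 15 were at an unadjusted p under 0.05. Without Plzf +/+ plate 1, 7 of 28 were called, against 58 of all 10247 genes. Without Plzf lu/lu plate 3, the late germ-rich Plzf lu/lu cells were 6 cells with 32 histone UMIs in all. The fitted median was then -6.97, a value that rests on counts of 0 and measures no size. The Gfra1 difference had a median of -0.31, against -0.03 for all genes. With edgeR 0 histone genes were called and 3 were at an unadjusted p under 0.05, against 70 and 900 of all 9959 genes. With DESeq2 both counts were 0 for the histone genes. The histone median was 0.07 without Plzf +/+ plate 2 and -1.60 without Plzf lu/lu plate 3, which left 7 Gfra1 cells with 69 histone UMIs. With 1 Plzf lu/lu library left, these fits assume that it varies like the others.

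Across the 1167 thinned cells, the genes most like the summed histone UMIs were sought among 4066 genes found in at least 10% of cells. By Spearman correlation, given as a description, they were Mki67 (0.313), Top2a (0.308), Gm26924 (0.256), Tubb4b (0.25), Tuba3b (0.249), Tuba3a (0.246), Hmgb2 (0.217), Ptma (0.212), Pcna (0.211) and mt-Rnr2 (0.207). The order is that of the pooled cells and did not hold in each library. Mki67 had 0.291 to 0.436 in Plzf +/+ but 0.169 and 0.0584 in Plzf lu/lu libraries, where Gm26924 had 0.278 and 0.251, and Tubb4b was at -0.125 on Plzf lu/lu plate 4. Mki67, Top2a, Tubb4b and Hmgb2 are on the list of G2 and mitosis genes, and Pcna is on that of replication genes. Tuba3b and Tuba3a are on the list of late germ cell genes, although they were found in 48.9% and 66.6% of the thinned cells. The sum of G2 and mitosis genes had a correlation of 0.338, against 0.271 for the sum of replication genes and 0.125 for that of late germ cell genes. By library, the last value was from 0.124 to 0.255 in Plzf +/+ and at 0.00788 and -0.243 in Plzf lu/lu libraries. Cells share libraries, and depth before thinning had a correlation of 0.159. Mean histone UMIs were 1.5 in 48 cells with 1 to 2 replication gene UMIs, 1.80 in 171 cells with 3 to 5, 2.45 in 341 cells with 6 to 9 and 5.24 in 602 cells with 10 or more. The medians were 1, 1, 1 and 2, a smaller rise than that of the means.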

How the data were processed

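The data are UMI counts of 3′ transcript ends in single sorted cells. The authors deposited raw UMI counts per gene symbol and cell, merged over plates into 1 table per genotype and not normalized. The submitters' processing notes name bcl2fastq 2.18.0.12, Picard 2.9.3, STAR 2.5.4a and GRCm38. The counting of reads that match several genes is not given in the sources used here. The plate in each cell's name gave its library, and on plate 4 the table gave the genotype. A gene missing from 1 table (2 histone genes in that of Plzf lu/lu) was taken as 0. Plates reuse well barcodes, so libraries of different plates shared 31 to 271 of them, and the 2 libraries of plate 4 shared 0. No cell was removed and no doublet caller was run; 24 cells had over 4 times the median UMIs, and 5 Plzf +/+ cells of plate 4 lay outside the wells that the labels give.

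UMIs were summed per library, or per library and group of cells, since cells are not replicates, and tested with edgeR 4.0.16 (filterByExpr, TMM, glmQLFit and glmQLFTest, robust) in R 4.3.3, with Benjamini-Hochberg adjustment over all genes tested. Genes that defined a division were left out of its test. Divisions used cells thinned to 2000 UMIs (seed 1), which left out 82 cells. DESeq2 1.42.0, other filters, normalizations, thresholds and left-out libraries were the alternatives; the interactions, a block on title numbers and fits without late germ-rich cells or the 5 cells outside their wells were added after the data were seen. No permutation test was run, since 3 libraries against 2 allow no p under 0.1. The fits were tested on simulated data. Summaries used Python 3.11.15 with pandas 2.3.3 and scipy 1.17.1. The genes named are the 12 with the most UMIs, each gene called in a fit, the 2 highest and 2 lowest log2 fold changes between genotypes and the 3 testis genes; further genes were named after their values were seen. The members and lists were chosen with earlier results of these data known. Promoters are from RefSeq, and transcripts from GENCODE M1.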

Additional observations from a re-analysis of the deposited data

Results flagged for a closer look

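For Hist1h2aa, the difference between late germ-rich and other cells took opposite directions in the genotypes. It was higher in late germ-rich cells in 3 of 3 Plzf +/+ libraries (132, 55.1 and 82.3 CPM against 45.5, 48.5 and 39.6) and lower in both Plzf lu/lu libraries (29.1 and 0 against 36.9 and 27.6). The interaction was -1.575 ± 0.56 on the log2 scale (SE; edgeR adjusted p = 0.885), which did not pass the test. Most histone genes lay on the same side, with 28 of 30 tested below 0 and a median of -1.48. The 0 comes from 6 cells.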

How the results depend on the processing

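The test between genotypes called 0 histone genes, and leaving out 1 library gave 0 to 1; its 1 reversed value was Hist1h4b, at -0.32 without Plzf lu/lu plate 3 and up to 1.268 without another library. In the replication division (27 called), sums of thinned cells called 6 of 6 tested and the 90th percentile 14 of 15. In the late germ division (5 higher and 1 lower of 30), DESeq2 called 3 and 0 of 30, against 2182 and 1014 of all 9918 genes. No filter gave 9 and 6 of 69, against 3801 and 2804 of all 25597. No library block gave 3 and 0 of 30, against 2071 and 1168 of all 9918. Thinned sums called 0 and 0 of 4, against 425 and 163 of all 2997. The 90th percentile called 1 and 14 of 18, against 1848 and 4047 of all 8368. In the same division, DESeq2 size factors called 0 of 30 lower, against 1586 of all 9918 genes. Leaving out cells without Dazl and Ddx4 called 3 of 30 lower, against 2188 of all 9776. Leaving out 1 library gave 2 to 5 higher and 0 to 6 lower, against 1840 to 2736 and 973 to 3578 of all genes. With Gfra1 (14 of 27 called lower), DESeq2 called 7 of 27, against 394 of all 9959 genes, and no library block 0 of 27, against 0 of all 9959. Thinned sums called 5 of 9, against 202 of all 4987, and a split at 1000 UMIs 7 of 15, against 542 of all 7164. Leaving out 1 library gave 1 to 20, against 75 to 697 of all genes. The interactions of the replication and late germ divisions called 0 to 2 and 0 to 7 when 1 library was left out. The mean share of cells with a histone UMI, 88.8% in Plzf +/+ and 92.8% in Plzf lu/lu, was 71.6% and 78.4% at 2000 UMIs, 58.0% and 62.4% at 1000 UMIs, and 78.4% and 84.4% for at least 2 UMIs. Fewer genes pass the filter in thinned sums and smaller groups; for the other settings the cause was not tested. Of 621 alternatives for single genes, 521 kept the side of the threshold, 98 lost a call, 1 gained it and 1 reversed. A gene that missed the filter in an alternative was not counted there. The genes at the ends of the genotype range, uncalled in the main fit, were counted. The titles give both genotypes numbers 1 and 2, which lie on different plates and share only a number; with it as a replicate block, added after the data were seen, 0 of 51 histone genes and 0 of 13728 genes were called (edgeR; 3 and 973 at an unadjusted p under 0.05), with a median of -0.53. Genes under 10 UMIs are beyond what this depth can test.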
